A study of Mus musculus with 3 samples.

Results

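Expression of acute-phase genes and of the Stat3 axis after RL (RANK ligand) was measured in primary tumor cultures from MMTV-PyMT mice. The 10 genes were Lrg1, Saa1, Saa2, Saa3, Hp, Lcn2, Orm1, Lbp, Stat3 and Socs3, of 21743 genes and transcripts tested. They were chosen from the same RL over control contrast, in which Lrg1 and Saa2 were lower while NF-κB genes were higher, so their ratios are given as a description. How many of them lay past a threshold in that contrast is printed beside the share of all genes and is no test of them. The arrays held 11 probes for them, 2 for Stat3 and 1 for each other gene, and all 11 were well above background in all 6 channels.

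In MMTV-PyMT mice the mouse mammary tumor virus promoter drives the polyoma middle T antigen, mainly in the mammary epithelium, and mammary tumors follow. Cultures from the tumors of 3 mice, called tumors 1, 2 and 3, were grown in DMEM F12 with 5% FBS, cholera toxin, insulin and EGF, and 1 culture of each tumor received RL for 24 h while 1 stayed untreated as the control. The labels give the RL dose as 1000 µg/mL and the methods give 1 µg/mL, and the strain and age of these mice are not given in the labels. The RNA of both cultures of a tumor was hybridized on 1 Agilent array in different dyes, with RL in Cy3 for tumors 1 and 3 and in Cy5 for tumor 2. Each tumor thus had 1 culture per condition, and having 3 arrays limits how precise any value can be. Of the 55681 probes, 56.2, 57.2 and 56.8% were well above background in the control cultures of tumors 1, 2 and 3, and 56.9, 56.7 and 55.6% in the RL cultures. Across genes, which are not independent replicates, Pearson's r of the ratios was 0.453 between tumors 1 and 3, −0.112 between tumors 1 and 2 and −0.108 between tumors 2 and 3. Tumor 2 was the only array with RL in Cy5, so the dye order and this tumor cannot be told apart. Ratios are log2 RL over control, and levels are normalized log2 intensities of a culture, comparable only within a probe. In these bulk cultures fewer cells of a type and less RNA per cell cannot be told apart.

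Acute-phase proteins are secreted, mostly by the liver, when inflammation or injury raises cytokines of the IL-6 family, IL-1 and TNF. IL-6 family cytokines bind receptors that share gp130, whose kinases activate Stat3, and Stat3 acts on acute-phase promoters with C/EBP and NF-κB factors while it induces its own inhibitor, Socs3. In the mammary gland Stat3 is known as the driver of the cell death that starts involution after weaning, and RANK, the receptor of RL, signals to NF-κB.

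The promoters of Lrg1 and of the Saa genes are shown because the ratios of Lrg1 and Saa2 entered the choice of the members, and Saa1 and Saa3 are relatives of Saa2. The RefSeq table (GRCm38.p6) held a promoter for 7 of the 10 members, and Hp, Orm1 and Lbp are named only. The 250 bases before the start of each gene were searched on both strands for a STAT motif (TTCNNNGAA), an NF-κB motif (GGGNNNNNCC) and a C/EBP motif (TTGCNNAA), with N for any base. Matches stand in capitals, 5′ to 3′ on the strand of the gene. The windows were chr17:56121947-56122196 (minus strand) for Lrg1, chr7:46742981-46743230 (minus strand) for Saa1, chr7:46751583-46751832 (plus strand) for Saa2 and chr7:46715677-46715926 (minus strand) for Saa3.
Lrg1: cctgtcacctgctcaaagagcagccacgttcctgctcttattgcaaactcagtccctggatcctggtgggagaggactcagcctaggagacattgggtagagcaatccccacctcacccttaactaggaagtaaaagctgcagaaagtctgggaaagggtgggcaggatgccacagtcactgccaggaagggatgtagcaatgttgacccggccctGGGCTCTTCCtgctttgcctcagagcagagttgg
Saa1: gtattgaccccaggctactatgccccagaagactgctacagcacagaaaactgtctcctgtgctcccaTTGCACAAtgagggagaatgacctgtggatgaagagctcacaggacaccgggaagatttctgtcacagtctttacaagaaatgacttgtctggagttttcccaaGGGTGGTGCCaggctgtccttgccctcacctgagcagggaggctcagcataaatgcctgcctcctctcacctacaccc
Saa2: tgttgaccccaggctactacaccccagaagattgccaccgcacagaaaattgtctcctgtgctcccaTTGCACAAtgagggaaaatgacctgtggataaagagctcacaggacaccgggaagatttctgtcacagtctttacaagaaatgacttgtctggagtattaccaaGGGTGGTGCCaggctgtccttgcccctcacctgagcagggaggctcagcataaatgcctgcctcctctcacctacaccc
Saa3: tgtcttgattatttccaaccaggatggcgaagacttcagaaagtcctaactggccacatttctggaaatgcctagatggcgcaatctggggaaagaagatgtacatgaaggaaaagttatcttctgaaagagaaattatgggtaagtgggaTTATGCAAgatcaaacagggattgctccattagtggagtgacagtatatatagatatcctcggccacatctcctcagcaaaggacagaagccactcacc

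The STAT motif was present in 7.02% of the 32841 promoters of the table, the NF-κB motif in 45.8% and the C/EBP motif in 9.57%. The window of Lrg1 held 1 NF-κB match, those of Saa1 and Saa2 held 1 NF-κB and 1 C/EBP match each, and that of Saa3 held 1 C/EBP match. Among the other members with a promoter, Lcn2 held 1 NF-κB and 1 C/EBP match, Socs3 held 1 STAT and 1 NF-κB match, and Stat3 held none of the 3 motifs. Matches of different motifs overlapped in 0 cases. The Saa1 and Saa2 windows were identical at 238 of 251 aligned positions, or 94.8%, whereas Saa1 and Saa3 shared 52.7%. That was near the level of the Lrg1 window, which shared 52.9, 51.7 and 51.3% with Saa1, Saa2 and Saa3. A match is a description of these letters and not of binding.

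Lrg1 encodes a secreted leucine-rich glycoprotein that modulates TGF-β signaling in endothelium. Its log2 ratio was −0.84, −0.72 and −0.70 in tumors 1, 2 and 3. The 3 ratios lay close together, with a mean of −0.75 ± 0.075 (SD, n = 3), which is 1.69-fold lower with RL. The normalized log2 level of the control culture was 14.51, 12.18 and 11.36 in tumors 1, 2 and 3, and that of the RL culture was 13.67, 11.46 and 10.65 in the same order. The ratio was thus similar in tumors whose control levels spanned 8.89-fold.

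Among the 10 members, Lrg1 was the 1 gene past the adjusted p of 0.05 on the lower side, where 0.0230% of all genes tested were called. Without tumor 1 and without tumor 3 no member was past it. Without tumor 2, the array with RL in Cy5, 7 members were past it, when 1494 of all genes were called, 569 higher and 925 lower. Both arrays then left had RL in Cy3, so RL and dye cannot be told apart in those calls. With a dye term 5 members were past it, Hp, Lcn2, Lrg1, Saa1 and Saa2, when 291 of all genes were, 124 higher and 167 lower. On the higher side no member was called, where 0.00460% of all genes were. Ratios were below 0 in all 3 tumors for 4 members, Lrg1, Saa1, Saa2 and Lbp, and 13.6% of all genes had this pattern. They were above 0 in all 3 tumors for 2 members, Hp and Orm1, beside 14.1% of all genes. Nothing is read from these counts, since the contrast chose the members.

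Saa1 and Saa2 encode the serum amyloid A proteins that circulate with high-density lipoprotein, and Saa3 encodes the form made mainly outside the liver. The log2 ratio of Saa1 was −0.97, −0.24 and −0.40 in tumors 1, 2 and 3, a mean of −0.54 ± 0.39 (SD, n = 3). The ratio of Saa2 was −1.12, −0.27 and −0.28 in tumors 1, 2 and 3, a mean of −0.56 ± 0.49. Both genes were lower with RL in all 3 tumors, by more in tumor 1 than in the others, and without tumor 1 the mean was −0.32 for Saa1 and −0.28 for Saa2. Their transcripts are close copies, and how far each probe also binds the other transcript was not tested.

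The ratio of Saa3 was 0.46, −0.15 and 0.14 in tumors 1, 2 and 3, a mean of 0.15 ± 0.31. Its sign differed between tumors, and the mean was −0.0073 without tumor 1 and 0.30 without tumor 2. The log2 level of the Saa3 control culture was 9.38, 14.96 and 13.55 in tumors 1, 2 and 3. That range of 5.57, or 47.6-fold, was far larger than any Saa3 ratio.

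**Figure D1:**
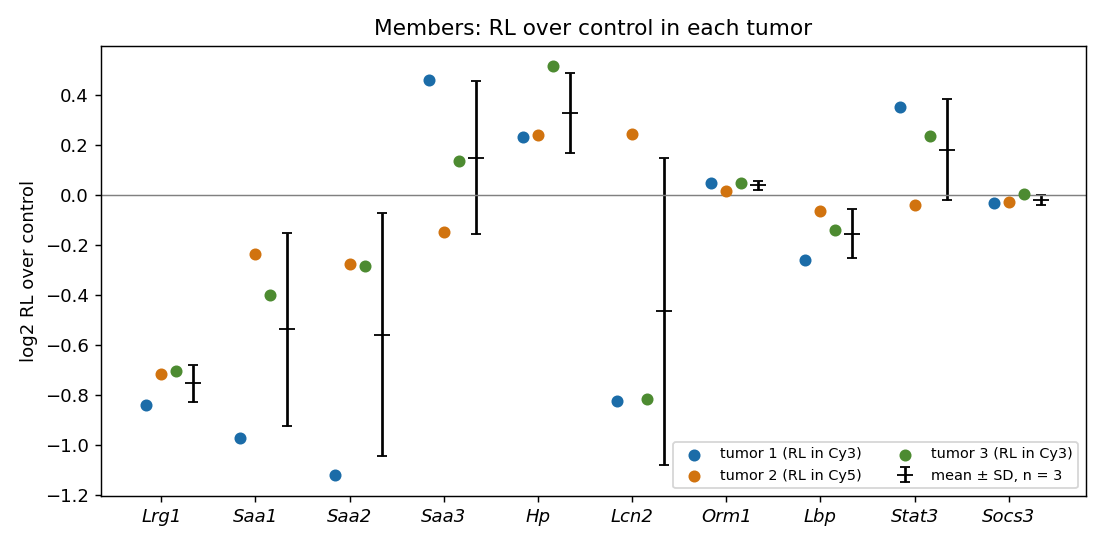
Log2 ratio of RL over control (vertical axis) of the 10 members in tumor 1 (blue), tumor 2 (orange) and tumor 3 (green), with the mean and SD of the 3 tumors in black. Lrg1 lies between −0.84 and −0.70, Saa1 and Saa2 spread more widely below 0, and Lcn2 is below 0 in tumors 1 and 3 and above 0 in tumor 2.

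Hp encodes haptoglobin, which binds free hemoglobin. Its log2 ratio was 0.23, 0.24 and 0.51 in tumors 1, 2 and 3, a mean of 0.33 ± 0.16 (SD, n = 3). Hp was higher with RL in all 3 tumors, opposite to Lrg1, Saa1 and Saa2. Its control level was 11.98, 15.08 and 14.28 in tumors 1, 2 and 3, an 8.53-fold range.

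Lcn2 encodes lipocalin 2, which binds bacterial siderophores and is also a target of NF-κB. Its log2 ratio was −0.82, 0.24 and −0.82 in tumors 1, 2 and 3, a mean of −0.47 ± 0.61. Without tumor 2 the mean was −0.82, and without tumors 1 and 3 in turn it was −0.29 and −0.29. The ratio was below 0 in both tumors with RL in Cy3 and above 0 in tumor 2, with RL in Cy5, and whether the sign goes with the dye or with tumor 2 cannot be told apart. With a dye term beside the RL term, the RL estimate of Lcn2 was −0.29 and the dye estimate, Cy5 over Cy3, which rests on how tumor 2 differs from the other tumors, was 0.53. For Lrg1 the same fit gave −0.75 for RL and 0.027 for the dye, and for Hp it gave 0.31 for RL and −0.067 for the dye. Saa1, with an RL estimate of −0.46, had a dye estimate of 0.22, and Saa2, with −0.49, had 0.21.

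**Figure D2:**
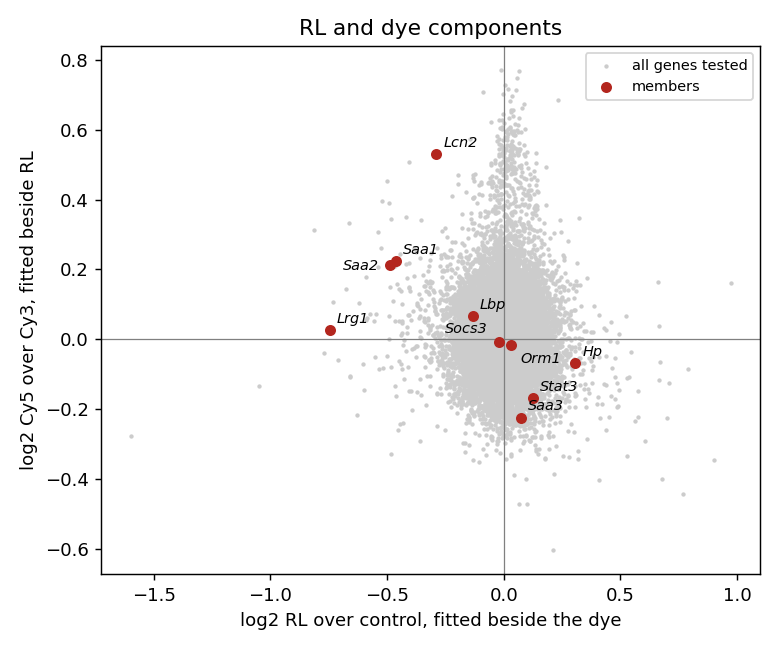
RL component (horizontal axis, log2 RL over control) and dye component (vertical axis, log2 Cy5 over Cy3) of all genes tested (grey) and of the members (red), both from the fit with a dye term, in which the dye component rests on tumor 2. Lrg1 lies at −0.75 and 0.027, while Lcn2 lies at −0.29 and 0.53.

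Orm1 encodes orosomucoid, a plasma glycoprotein that binds lipophilic drugs, and Lbp encodes the protein that passes bacterial lipopolysaccharide to CD14. The ratio of Orm1 was 0.049, 0.016 and 0.050 in tumors 1, 2 and 3, a mean of 0.038 ± 0.019. The mean of Lbp was −0.16 ± 0.098, from −0.26 in tumor 1 over −0.066 in tumor 2 to −0.14 in tumor 3, and it was −0.10 without tumor 1. Orm1 was dim in tumor 1, with a median intensity of 150 in the control channel over a local background of 69, and the normexp offset brings the ratios of dim genes closer to 0. Its copies Orm2 and Orm3 are close in sequence, and cross-hybridization was not tested.

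Stat3 encodes the transcription factor itself, and Socs3 the inhibitor that Stat3 induces. The log2 ratio of Stat3 was 0.35, −0.042 and 0.23 in tumors 1, 2 and 3 by its brighter probe, which is spotted 10 times on each array, a mean of 0.18 ± 0.20. It was 0.096 without tumor 1 and 0.29 without tumor 2. Its dimmer probe gave 0.080, −0.025 and 0.13 in the same order, with the same sign in each tumor and a mean of 0.063. When arrays were centered on their median in place of loess, the mean of Stat3 was −0.017 and the median of all genes −0.11, and relative to that median Stat3 was 0.094. The ratio of Socs3 was −0.032, −0.028 and 0.0045 in tumors 1, 2 and 3, and its mean of −0.018 ± 0.020, or −0.030 without tumor 3, was near 0. Stat3 activity depends on phosphorylation, which was not measured.

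The levels of several members differed far more between tumors than between the cultures of a tumor. The control levels of Orm1 were 6.97, 10.11 and 9.21 in tumors 1, 2 and 3, and its RL levels of 7.02, 10.13 and 9.26 kept the same order. Saa1, Saa2, Saa3, Hp and Socs3 had the same order of tumors as Orm1 in both the control and the RL cultures, highest in tumor 2 and lowest in tumor 1, which makes 6 of the 10 members. The log2 control level of Socs3 in tumor 1 minus that in tumor 3 was only −0.040. When arrays were centered on their median in place of loess, 4 members had this order, and Saa1 and Socs3 did not. Of all genes with a value on all arrays, 12.1% had it in both cultures with loess. Lrg1 had another order, with tumor 1 highest and tumor 3 lowest, as did 7.95% of all genes. Lcn2 and Stat3 had a different order in control and RL cultures.

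The range of control levels over the tumors was as large as that of Saa3 in 0.0414% of all genes, as that of Lrg1 in 0.433%, as that of Orm1 in 0.437% and as that of Hp in 0.483%. For Stat3, with a range of 0.30, the share was 51.8%, and for Socs3, with 0.75, it was 14.0%. In all, 7 of the 10 members lay above the 90th percentile of the range, which was 0.89. Marker lists with more than 2 tested genes also held genes above it. Their shares were 100% for milk, 71.4% for fibroblasts, 66.7% for epithelium, 60% for neutrophils and 11.1% for macrophages. With median centering 5 members lay above the 90th percentile, then 1.23, and the ranges of Saa1 and Saa2 were 0.60 and 0.37. With processed signals 5 lay above theirs, 1.26, and with no filter on dim probes 9 lay above 0.70. Each tumor lay on its own array, so tumor and array cannot be told apart in these levels.

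**Figure D3:**
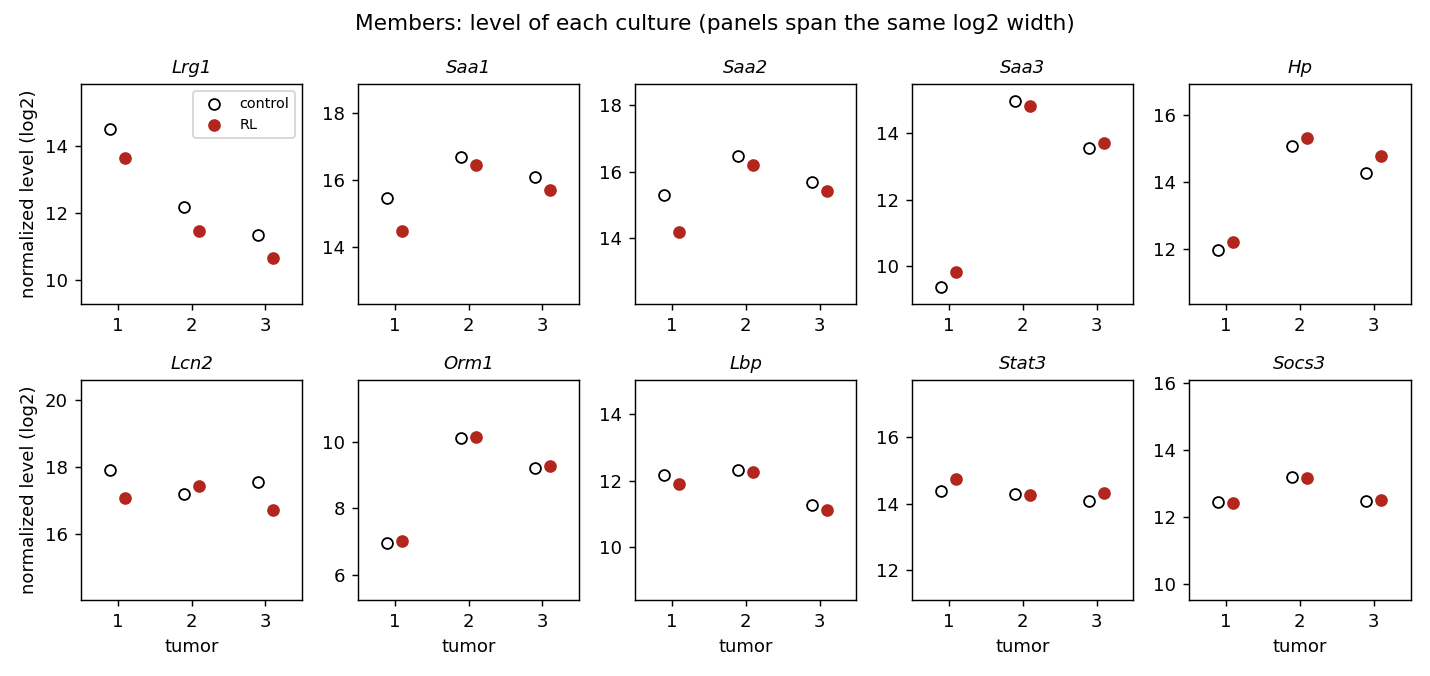
Normalized log2 level (vertical axis) of each member in the control (open) and RL culture (red) of tumors 1, 2 and 3 (horizontal axis), with the same log2 width in every panel. Saa3, Hp and Orm1 are lowest in tumor 1 and highest in tumor 2, while Lrg1 is highest in tumor 1.

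**Figure D4:**
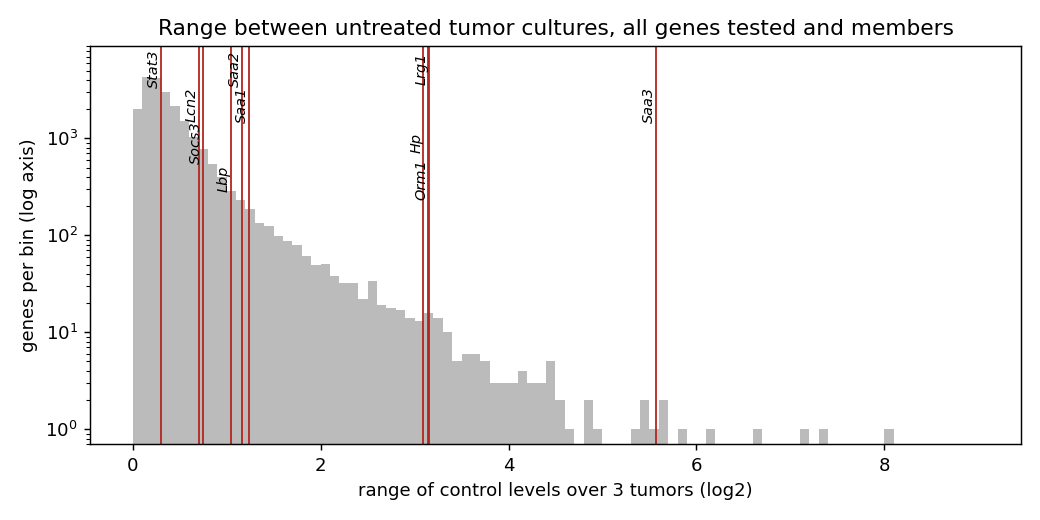
Histogram of the range of control levels over the 3 tumors (horizontal axis, log2) for all genes with a value on all arrays, with the number of genes per bin on a log axis and a red line for each member. Saa3 lies at 5.57, Lrg1, Orm1 and Hp lie between 3.09 and 3.15, and Stat3 lies at 0.30.

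Of 24 other acute-phase genes, 9 were tested, and 0 passed the limma adjusted p of 0.05 in either direction, while 2 were higher and 3 lower at an unadjusted p under 0.05. Of all 21743 tested, 761 were higher and 778 lower at that p, which is the background of this count in each list. The median log2 ratio of the 9 was 0.11, beside −0.0020 for all genes tested. It was −0.061 without tumor 1, −0.010 with no filter on dim probes and 0.012 with the mean over the probes of a gene. Of the 9, 2 were higher and 3 lower in all 3 tumors, beside 14.1% and 13.6% of all genes. Mt2, a metallothionein, had a mean of 0.49 (limma SE 0.10, adjusted p = 0.281), C4b, a complement component, −0.42 (SE 0.10, adjusted p = 0.393), and Fgg, a fibrinogen chain, −0.38 (SE 0.13, adjusted p = 0.561). Fgg was well above background in 3 control and 2 RL channels, so it passed the filter through the condition where it is higher, and without tumor 2 its mean was −0.16. Of 7 genes known to be lower in the acute phase, Trf and Rbp4 were tested, and neither passed or had an unadjusted p under 0.05. Their median was −0.096, which was 0.071 without tumor 1. Rbp4 was well above background in 3 control and 2 RL channels. The list median was −0.23 with the stricter filter on dim probes and −0.011 with no such filter. Orm2, Fgg and C4b, 3 of the 9 other acute-phase genes tested, had the same order of tumors as Orm1 in both cultures, beside 12.1% of all genes. The Orm2 control levels were 7.18, 10.46 and 9.79 in tumors 1, 2 and 3.

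Upstream of Stat3, 7 of 8 ligands of the gp130 family were tested and 0 passed in either direction, also at an unadjusted p under 0.05, and their median was 0.067, or 0.036 without tumor 1. Il6 had a ratio of 0.044, 0.072 and 0.36 in tumors 1, 2 and 3, a mean of 0.16 (limma adjusted p = 0.767) that was 0.058 without tumor 3. Lif, with a mean of 0.14, or 0.059 without tumor 1, was not of 1 sign. Osm was not well above background in all 3 channels of either condition. The Il6 control levels of 8.21, 11.41 and 10.43 in tumors 1, 2 and 3 had the order of Saa3, Hp and Orm1, and its RL levels of 8.25, 11.48 and 10.78 had it too. In both cultures 2 of the 7 ligands had this order, beside 12.1% of all genes.

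Of 12 receptors, 10 were tested and 0 passed, with 1 higher and 0 lower at an unadjusted p under 0.05 and a median of 0.036, or 0.023 without tumor 3. Il6st, which encodes gp130, had a mean log2 ratio of 0.24 (limma SE 0.091, adjusted p = 0.643) and was above 0 in all 3 tumors, with 0.13 without tumor 1. The mean was −0.055 for Il6ra, −0.0092 for Lifr and 0.16 for Osmr, each with both signs among the tumors. Leaving out each tumor gave −0.25 to 0.084 for Il6ra, −0.053 to 0.037 for Lifr and 0.082 to 0.30 for Osmr. Cntfr, at −0.15, was below 0 in all 3. Of 10 kinases and STAT factors, 9 were tested and 0 passed, with 1 higher and 0 lower without adjustment and a median of 0.026, which was 0.016 without tumor 2, 0.0051 without tumor 3 and 0.079 with processed signals. Jak2 had a mean of 0.17 (limma adjusted p = 0.700) and Jak1 0.088, or 0.0051 without tumor 3.

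Of 13 further inhibitors of the pathway, 12 were tested and 0 passed, with 2 higher and 0 lower at an unadjusted p under 0.05 and a median of −0.053, which was 0.012 without tumor 3. The largest means of 1 sign were those of Cish at 0.27, Ptpn2 at 0.25 and Ptpn11 at 0.14, with limma adjusted p values of 0.535, 0.572 and 0.753. Without tumor 1 the mean of Cish was 0.16, and without tumor 2 that of Ptpn2 was 0.14. Of 22 genes known as Stat3 targets, 21 were tested and 0 passed, with 2 higher and 2 lower without adjustment and a median of −0.031, which was 0.037 without tumor 2 and 0.037 without tumor 3. Igfbp5, which encodes an IGF-binding protein known from mammary involution, had log2 ratios of −0.83, −0.41 and −0.70 in tumors 1, 2 and 3 and a mean of −0.65 (limma SE 0.090, adjusted p = 0.0920). Pik3r1 had a mean of −0.20 and Birc5 of 0.17.

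Of 10 transcription factors of acute-phase genes, 8 were tested and 0 passed, with 1 higher and 0 lower at an unadjusted p under 0.05 and a median of 0.036, or 0.076 without tumor 3. Foxa2, a forkhead factor, had ratios of 0.73, 0.42 and 0.55 and a mean of 0.56 (limma SE 0.080, adjusted p = 0.0920). Cebpb had a mean of −0.057 with both signs and was 0.056 without tumor 1. Cebpd had a mean of 0.058 and Nfkbiz 0.12, both above 0 in all 3 tumors. All 11 genes of the IL-1 and TNF list were tested and 0 passed, with 3 higher and 0 lower without adjustment and a median of −0.054, which was −0.027, −0.026 and −0.0050 without tumors 1, 2 and 3 in turn and −0.11 with median centering. Il1b had a mean of 0.28 (limma SE 0.070, adjusted p = 0.393) and was above 0 in all 3 tumors, as was Tlr2 at 0.21, while Tnfrsf1a, at −0.093, was below 0 in all 3. Without tumor 1 the mean of Tlr2 was 0.14 and that of Tnfrsf1a −0.027. Tnf had a mean of 0.32, from −0.040 in tumor 3 to 0.79 in tumor 1, and a mean of 0.083 without tumor 1.

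The NF-κB genes entered the choice of the members and are given without a test. Of 16 listed, 15 were tested, and 13 of these were above 0 in all 3 tumors, beside 14.1% of all genes. Their median ratio was 1.01, 0.31 and 0.27 in tumors 1, 2 and 3. The SD of the ratios of all genes was also largest in tumor 1, at 0.19, beside 0.15 and 0.17 in tumors 2 and 3. The mean was 1.01 for C3, 0.77 for Nfkbia, 0.75 for Nfkbie and 0.63 for Nfkb2. Without tumor 1 these means were 0.56, 0.42, 0.47 and 0.31, and the list median, 0.50 with all tumors, was 0.31. Cxcl10, 1 of the 13, was well above background in 2 control and 3 RL channels and so passed the filter through the condition where it is higher, and under the stricter filter the list median was 0.52. Of 11 receptors and partners of the secreted members, 8 were tested and 0 passed, also without adjustment, their median was −0.030, and 0.017 without tumor 2, and the largest mean of 1 sign was 0.069 for Mmp9, or 0.041 without tumor 2.

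**Figure D5:**
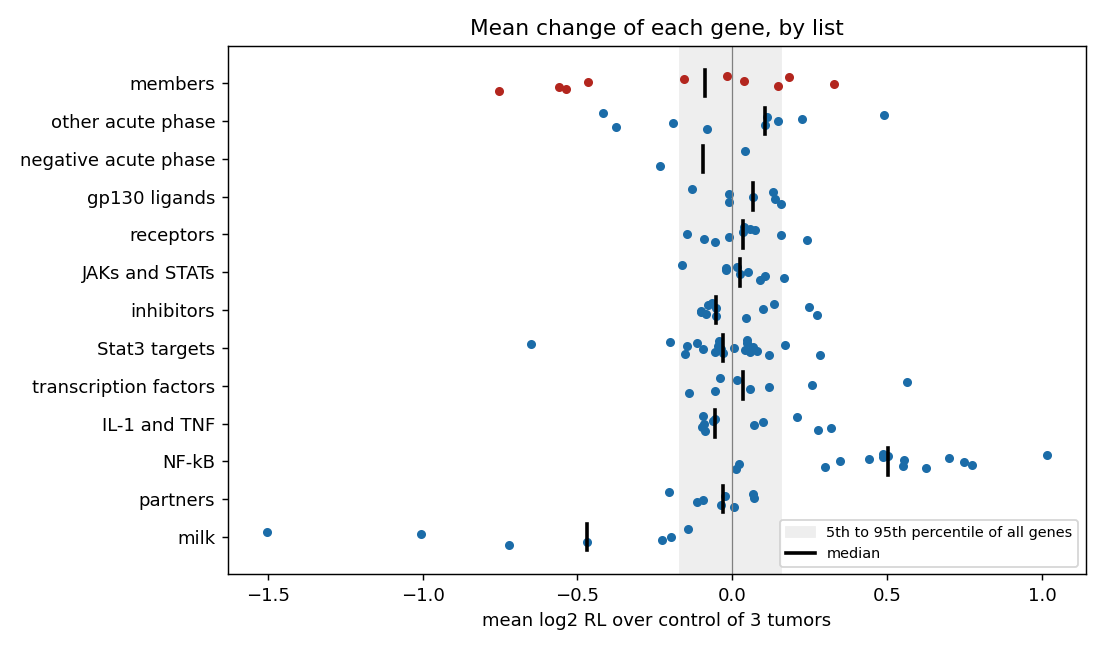
Mean log2 ratio of RL over control (horizontal axis) of the tested genes of each list, members in red and other lists in blue, with list medians as black bars and the 5th to 95th percentile of all genes, −0.17 to 0.16, in grey. The NF-κB median lies at 0.50 and the milk median at −0.47, while those of the Stat3 pathway lists lie between −0.053 and 0.067.

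The symbol-named genes whose 3 ratios lay nearest to those of Lrg1, by Euclidean distance among 14033 genes, were Foxi1 at 0.14, Csn1s1 at 0.20, Them5 at 0.23, Emid1 at 0.27 and Igfbp5 at 0.30. Such a distance picks genes lowered by about as much as Lrg1, whose fall entered the choice of the members. A link of these genes, or of the milk genes, to Lrg1 was not tested. Csn1s1 encodes a casein. It is also 1 of 7 tested milk genes, of which 0 rose and 3 fell, Lalba, Wap and Csn1s1, with limma adjusted p values of 0.0104, 0.0451 and 0.0451. Elf5, a transcription factor, is counted among the 7. Among all genes tested, 0.0230% were called lower and 0.00460% higher. The log2 ratios of Lalba were −1.40, −1.87 and −1.24 in tumors 1, 2 and 3, and the means of Wap and Csn1s1 were −1.01 and −0.72. Among all genes 1 passed without tumor 1 and 2 passed without tumor 3. With processed signals, with median centering and without the pairing by tumor, 0 passed, so the 3 milk calls were lost there. All 7 milk genes were below 0 in all 3 tumors, beside 13.6% of all genes. The control levels of Csn1s1 were 15.33, 13.04 and 10.98 in tumors 1, 2 and 3. In both cultures 6 of the 7 milk genes had the order of Lrg1, tumor 1 highest and tumor 3 lowest, beside 7.95% of all genes.

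Of 9 epithelial markers, 9 were tested, and their summed level in control cultures was 331150, 261560 and 475860 in tumors 1, 2 and 3, with 268970, 285240 and 349680 in RL cultures. Krt18, the brightest, had ratios of −0.73, 0.43 and −0.70, with the signs of Lcn2 in each tumor, and here too dye and tumor 2 cannot be told apart. Such sums add probes of unlike brightness and can follow the brightest, as the epithelial sum did with Krt18. Without Krt18 the epithelial sum was 129910, 143710 and 238040 in control and 147650, 126480 and 203650 in RL cultures, and of the 8 other markers 8, 0 and 2 had a ratio above 0 in tumors 1, 2 and 3. The milk genes summed to 181920, 28759 and 14813 in control and 88897, 19615 and 12646 in RL cultures, with Elf5 brightest by mean log2 level. Without Elf5 they summed to 158700, 16202 and 3842 in control and 68587, 8445 and 2183 in RL cultures, with Csn1s2a and Glycam1 not well above background. In tumor 1 Lalba was the brightest gene of the milk list, with a log2 control level of 16.8 beside 14.5 for Elf5. The sum without Elf5 thus keeps the brightest gene of that tumor. Hepatocytes are the main source of plasma acute-phase proteins, and of their 7 markers Alb, Ttr, Apoa1, Ahsg and Serpina1a were not well above background, while 2 were tested, with Tat brightest.

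Of 10 neutrophil markers, 5 were tested, with Csf3r brightest, while Mpo, Ngp, Cxcr2 and Retnlg were not well above background and Ly6g had no named probe. Their sum was 49509, 55610 and 45888 in control and 50048, 53984 and 43517 in RL cultures. Without Csf3r it was 10950, 13195 and 5685 in control and 6638, 10896 and 5656 in RL cultures. S100a9 and Camp were below 0 in all 3 tumors, with means of −0.13 and −0.098, while S100a8 had ratios of −0.78, −0.33 and 0.016. The ratios of Csf3r were 0.17, 0.023 and −0.087 in tumors 1, 2 and 3, and those of Elane −0.13, 0.22 and −0.14. All 9 macrophage markers were tested, with Itgam brightest and sums of 7849, 7374 and 8576 in control and 7179, 7991 and 7939 in RL cultures, and without Itgam 3125, 1972 and 3026 in control and 2636, 1929 and 3097 in RL cultures. The macrophage genes C1qa, Cd68 and C1qb were below 0 in all 3 tumors, with means of −0.23, −0.23 and −0.15, the last −0.067 without tumor 1. The other 6 macrophage markers had both signs among the tumors, and Adgre1, Csf1r and Fcgr1 had means of 0.026, 0.032 and 0.037. Of the 8 markers without Itgam, 0, 4 and 4 had a ratio above 0 in tumors 1, 2 and 3. All 7 fibroblast markers were tested, with Col1a1 brightest and sums of 9238, 4344 and 18021 in control and 7582, 4678 and 17446 in RL cultures, and without Col1a1 5880, 3105 and 11404 in control and 4871, 3269 and 11055 in RL cultures. Pdgfra was below 0 in all 3 tumors, with a mean of −0.19, or −0.098 without tumor 1. The other 6 fibroblast markers had both signs among the tumors. Of the 6 markers without Col1a1, 0, 4 and 2 had a ratio above 0 in tumors 1, 2 and 3. Of the epithelial, neutrophil, macrophage and fibroblast markers 0 passed the limma adjusted p of 0.05, with 0, 1, 2 and 1 lower and 0 higher at an unadjusted p under 0.05, and their part in the ratios of the members was not tested.

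Fewer markers of other cells were tested, 2 of 6 for adipocytes, 2 of 4 for endothelium and 2 of 4 for T cells. Fabp4, Kdr and Cd4 were the brightest, and Adipoq, Plin1, Lep, Cidec, Cdh5, Vwf, Cd3d and Cd8a were not well above background. The adipocyte sum was 270.8, 774 and 447.6 in control and 296.3, 764.8 and 511.8 in RL cultures. Without Fabp4 it was 97.4, 92.9 and 89.6 in control and 87.6, 107.8 and 81.6 in RL cultures, with the other direction in each tumor. The endothelial sum was 2091, 2121 and 1842 in control and 2310, 2048 and 2068 in RL cultures, and without Kdr 175.4, 147.4 and 172.3 in control and 154.0, 163.6 and 139.4 in RL cultures, again with the other direction in each tumor. The T cell sum was 1613, 1381 and 1409 in control and 1621, 1384 and 1330 in RL cultures, and without Cd4 542.0, 569.0 and 520.1 in control and 563.1, 559.5 and 511.4 in RL cultures. The hepatocyte sum was 243.7, 188.0 and 193.4 in control and 212.3, 192.7 and 193.4 in RL cultures, and without Tat 85.4, 82.5 and 82.4 in control and 83.4, 79.4 and 86.0 in RL cultures.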

How the data were processed

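Spots had been read with Agilent Feature Extraction 10.7.3.1 per the submitters' processing notes. For each spot and dye the authors deposited a median intensity with its background, a processed intensity and log10 ratios of Cy5 over Cy3. The log10 ratios were not used here, and the processed intensities only as an alternative. A table of loess and Aquantile normalized log2 ratios was deposited as well. By the methods these are a condition over the control, while the table names no direction or centring. Set against the scanner values across the probes kept, each column was Cy5 over Cy3, with Pearson's r of 0.964, 0.954 and 0.960, slopes of 1.17, 1.20 and 1.17, and medians of 0.0024, −0.0011 and 0.00069 for tumors 1, 2 and 3, so the sign was turned for tumors 1 and 3. Why the slopes are above 1, and the centring, stay unknown.

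The limma package (3.58.1) was run under R 4.3.3. Background correction was normexp (offset 50), followed by intensity and spatial loess (span 0.1) and Aquantile, with outlier spots left out. Probe accessions were matched to RefSeq (GRCm38.p6), which named 28026 of 55681 probes. Probes were kept if all 3 control channels or all 3 RL channels were well above background, and the brightest stood for a gene. Ratios were fitted with lmFit and eBayes and adjusted by Benjamini-Hochberg over all genes. By the labels the control and RL cultures of 1 tumor share an array, which pairs them. Promoters were aligned with Biopython 1.88. The programs were tested on simulated data.

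The members and lists were chosen with earlier results of these data known. Named were the members, in each list the genes past the threshold and the 3 largest mean changes of 1 sign, 16 fixed pathway genes, and the 5 genes nearest to Lrg1. Orm2, Cxcl10, S100a8, Elane, Adgre1, Csf1r and Fcgr1 were named after their values were seen. Alternatives changed 1 step at a time, and those for levels between tumors were chosen after seeing the data.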

Additional observations from a re-analysis of the deposited data

How the results depend on the processing

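The counts of genes past the threshold, 1 higher and 5 lower, moved with the processing. They were 6 and 12 without background correction, 0 and 0 with the scanner's processed signals, 0 and 0 with arrays centered on their median, not by loess, 0 and 3 with no filter on dim probes, and 0 and 3 with the stricter filter. With the mean over the probes of a gene 3 were lower, and with the authors' log2 ratios 2 were higher. Beside a dye term the counts were 124 and 167, with an intensity trend 9 and 21, by rank product 37 and 51, and at an unadjusted p under 0.05 761 and 778. Without the pairing by tumor (no replicate block) limma called 0 and 0. Leaving out each tumor in turn gave 0 to 569 higher and 1 to 925 lower, the highest counts without tumor 2, the array with RL in Cy5. Both arrays left without tumor 2 had RL in Cy3, so RL and dye cannot be told apart in those highest counts. The causes were not tested. No member was past the threshold with processed signals, with median centering, without the pairing, without tumor 1 or without tumor 3, and nothing is read from this, since the contrast chose the members.

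Median centering moved the median of all genes to −0.11. The median of the 10 members, −0.087 with loess, was then −0.24, and under the other alternatives it lay between −0.11 and −0.058. Relative to all genes, Lrg1 was −0.83, Saa1 −0.60, Saa2 −0.61, Saa3 0.18 and Hp 0.33. Set against all genes in the same way, Lcn2 was −0.62, Orm1 0.12, Lbp −0.19, Stat3 0.094 and Socs3 −0.060. The list medians were then −0.11 for other acute-phase genes, −0.038 for gp130 ligands, −0.11 for receptors, −0.11 for kinases and STAT factors, −0.20 for inhibitors, −0.18 for Stat3 targets, −0.10 for transcription factors and −0.17 for partners. Not set against all genes, median centering gave −0.94 for Lrg1, 0.0079 for Orm1, −0.30 for Lbp and −0.17 for Socs3. Processed signals gave 0.074 for Orm1. With the mean over the probes of a gene, the receptor median was −0.040. Leaving out each tumor gave −0.061 to 0.14 for other acute-phase genes and 0.052 to 0.076 for transcription factors. It gave both signs for genes lower in the acute phase, −0.23 to 0.071, inhibitors, −0.051 to 0.012, Stat3 targets, −0.029 to 0.037, and partners, −0.083 to 0.017. Of 150 member values under the alternatives, none of them set against all genes, 5 moved by more than 1 SD between tumors. They were those of Lrg1, Orm1, Lbp and Socs3 with median centering and of Orm1 with processed signals, and the cause was not tested. Many of the 150 values could not move that far, so the count does not measure robustness. Without Aquantile, with no filter or the stricter filter on dim probes, and without the pairing, every member kept its main value. Leaving out 1 of 3 tumors, or adding a dye term, cannot shift a mean by more than 1 SD. Saa3 without tumor 1 changed sign, as did Stat3 under median centering, though not relative to all genes. Over 9 settings the control range was 4.94 to 5.66 for Saa3, 2.43 to 3.14 for Hp, 2.81 to 3.89 for Orm1, 3.01 to 3.26 for Lrg1, 0.60 to 1.33 for Saa1, 0.37 to 1.26 for Saa2, 0.47 to 1.71 for Lcn2, 0.90 to 1.11 for Lbp, 0.14 to 0.83 for Stat3 and 0.15 to 0.81 for Socs3. The order of tumors in the control cultures was the same in 8 of 9 settings for Saa1, Lbp, Stat3 and Socs3, with another order under median centering, and in all 9 for the other members. Not all 9 could change it. No filter or the stricter filter on dim probes left the control range of every member as it was. The mean over the probes did so for all members but Stat3. The 90th percentile of each setting, and the members above it, were computed after seeing the data. Dim probes such as that of Orm1 in tumor 1 give ratios compressed toward 0.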
